A study of Homo sapiens with 6 samples.

Results

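The Wnt feedback targets examined here are 10 genes, AXIN2, NKD1, RNF43, ZNRF3, LGR5, DKK1, NOTUM, LEF1, TCF7 and SP5, taken by symbol from a table of 60564 Ensembl genes. All 10 were found, and all 10 passed the filter on low counts that left 18797 genes for testing. The samples were HEK293 cells, an established line from human embryonic kidney, in 2 states. The wild-type group (NC_HA, genotype WT) had 3 samples, and the group stably overexpressing SFXN2 (OE_HA) had 3 samples. SFXN2 encodes sideroflexin 2, a mitochondrial carrier protein. The labels do not say whether the replicates were separate cultures, whether the overexpressing cells were 1 clone, or whether the wild-type cells carried an empty vector.

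Wnt proteins bind Frizzled receptors and the co-receptors LRP5 and LRP6. Binding stops the degradation of beta-catenin, which then enters the nucleus and turns on genes together with DNA-binding proteins of the TCF/LEF family. Several of the genes turned on in this way act back on the pathway, most of them as brakes, so their transcripts are widely read as a measure of pathway activity. HEK293 cells carry a working form of this pathway and are commonly used to assay it.

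The 10 genes were chosen by symbol, but with their counts in overexpression and wild type already known, so the list counts as selected on this contrast. Their differences between the groups are therefore given as a description, without a test.

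Promoters of 5 of the 10 genes, in 7 windows, were found in a RefSeq table of windows from 250 bases before to 50 bases after each start (GRCh38.p14). The letters CTTTGA, a core bound by TCF/LEF proteins, were searched on both strands, the other strand reading TCAAAG. They occurred in 2 of the 7 windows (2 of the 5 genes, SP5 and DKK1) and in 12.9% of all 35116 windows. Both are shown because they hold the core more than once. The bases before the start are printed below, with each core on either strand in capitals. The SP5 stretch is chr2:170715087-170715336 and the DKK1 stretch is chr10:52314031-52314280, both on the plus strand.

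SP5: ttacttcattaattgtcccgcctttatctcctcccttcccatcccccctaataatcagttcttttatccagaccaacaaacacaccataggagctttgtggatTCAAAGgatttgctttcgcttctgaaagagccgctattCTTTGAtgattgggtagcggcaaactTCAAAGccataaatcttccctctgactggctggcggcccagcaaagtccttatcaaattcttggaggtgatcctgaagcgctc
DKK1: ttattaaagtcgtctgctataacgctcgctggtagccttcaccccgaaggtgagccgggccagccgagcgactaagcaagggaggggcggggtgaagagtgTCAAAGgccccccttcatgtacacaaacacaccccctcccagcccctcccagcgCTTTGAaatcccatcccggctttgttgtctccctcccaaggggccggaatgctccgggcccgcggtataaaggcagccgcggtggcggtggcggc

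SP5 held 3 cores, which begin at positions -147, -109 and -83, where -1 is the last base before the start. Of all windows 0.0997% held 3 or more. DKK1 held 2 cores, at positions -149 and -95, and 1.29% of all windows held 2 or more. The longer form CTTTGAT, which contains the core, occurred in SP5 alone among these genes and in 2.62% of all windows. The other longer form, CTTTGAA, occurred in SP5 and DKK1 and in 4.43% of all windows. The GC box GGGCGG, a site for proteins of the SP family, lay in windows of SP5, LEF1, TCF7 and DKK1 and in 45% of all windows. The letters CTTTGA were not found in the windows of LEF1, TCF7 or RNF43. Forms of the TCF/LEF site without these letters were not searched. A match of letters is not a measurement of binding.

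Total gene counts were 32121527 to 41217867 in the wild-type libraries and 40043248 to 59963713 in the overexpression libraries. Levels are in CPM, counts of a gene brought to equal library totals with TMM factors. SFXN2 had 1144 to 1580 counts in the wild-type libraries and 59139 to 108224 in the overexpression libraries, so each library matched its label. Its log2 fold change was 5.58 (SE 0.20, adjusted p = 2.3e-06 in edgeR). All 10 markers of HEK293 cells were counted well enough to be tested, at summed levels of 1671 to 1917 CPM in wild type and 1805 to 1917 CPM with overexpression. The 8 blood and endothelial markers summed to 1.14 to 1.55 CPM in wild type and 0.46 to 4.36 CPM with overexpression, with HBB at 0 in every library. The 6 fibroblast markers summed to 15.1 to 21.3 CPM and 12.4 to 21.6 CPM, most of it COL1A1, and the 6 epithelial markers to 71.3 to 89.0 CPM and 82.5 to 91.1 CPM, most of it EPCAM.

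The feedback targets comprised 7 well-counted genes and 3 genes with few counts. AXIN2, NKD1, RNF43, ZNRF3, LGR5, LEF1 and TCF7 held between 4811 and 9680 counts over the 6 libraries. DKK1, SP5 and NOTUM held 151, 167 and 299. LEF1, with the highest CPM of the 10, stood above 67.6% of all tested genes in mean CPM, and DKK1, with the lowest, above 13%.

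**Figure D1:**
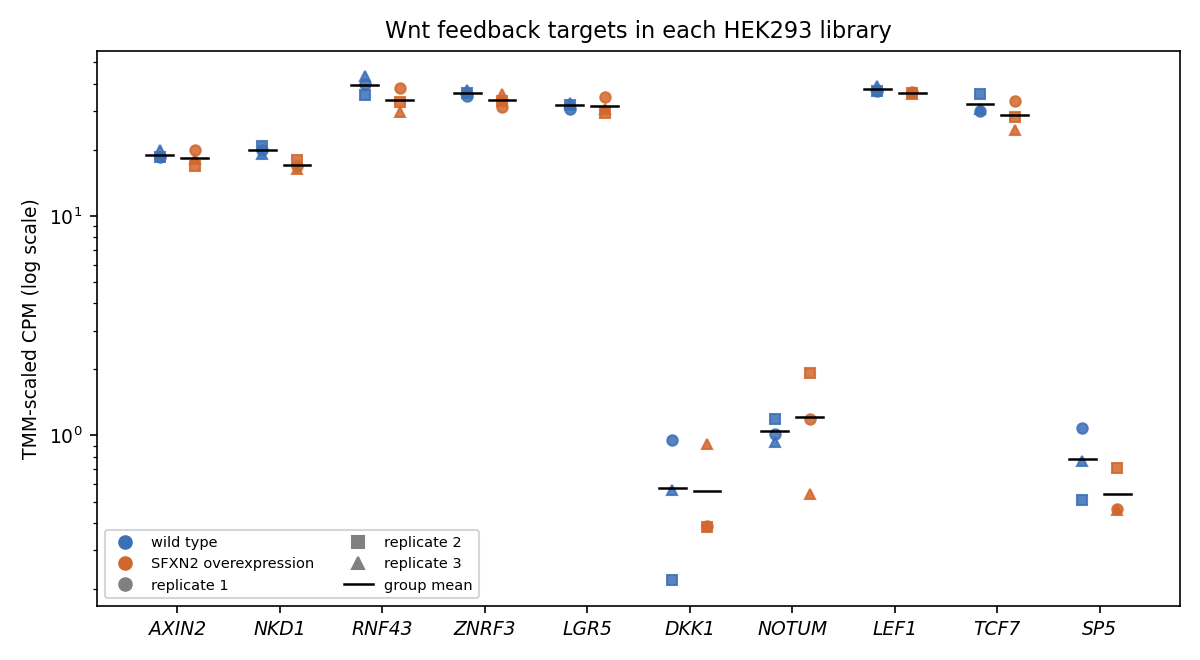
TMM-scaled CPM (vertical axis, log scale) of the 10 Wnt feedback targets in each of 3 wild-type and 3 SFXN2-overexpressing HEK293 libraries. Marker shapes give the replicate number and bars the group means. 7 genes lie between 16.3 and 43.4 CPM, and DKK1, NOTUM and SP5 lie under 2 CPM with a wide scatter between replicates.

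Levels of different genes were compared per kilobase of annotated exon. LEF1 was highest, at 6.90 ± 0.21 CPM per kilobase (SD over all 6 libraries). LGR5 followed at 6.05 ± 0.36, ZNRF3 at 5.03 ± 0.32 and RNF43 at 4.89 ± 0.65 CPM per kilobase (SD, n = 6 each). The values of ZNRF3 and RNF43 overlapped over the 6 libraries, and LEF1 lay only just above LGR5 (lowest LEF1 value 6.67, highest LGR5 value 6.62). AXIN2 (3.56 ± 0.23) and TCF7 (3.03 ± 0.39 CPM per kilobase, SD, n = 6 each) overlapped as well. NKD1 was at 1.06 ± 0.10 CPM per kilobase (SD, n = 6), below every value of those 6 genes. NOTUM, SP5 and DKK1 were at 0.37, 0.32 and 0.26 CPM per kilobase below every value of NKD1, and the values of these 3 overlapped one another. The order depends on the length used. With the length of 1 principal transcript per gene, a choice made after seeing the data, ZNRF3 (12.2 CPM per kilobase), LEF1 (12.1) and TCF7 (10.02) came first, while NKD1, NOTUM, SP5 and DKK1 kept the last 4 places.

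The first role among these genes is the removal of beta-catenin and the damping of the signal inside the cell. AXIN2 (ENSG00000168646; GRCh38 chromosome 17, 65528563 to 65561647) encodes a scaffold of the complex that marks beta-catenin for degradation, and is the most used single read-out of the pathway. It stood at 18.5, 18.5 and 19.96 CPM in wild-type replicates 1, 2 and 3 and at 19.9, 16.8 and 18.1 CPM in overexpression replicates 1, 2 and 3. The groups overlapped, with the lowest value in overexpression replicate 2. On the log2 scale overexpression differed from wild type by -0.053 (SE 0.12), with a 95% interval from -0.33 to 0.22. Without overexpression replicate 1 it was -0.12, without overexpression replicate 2 it was -0.00022 and without wild-type replicate 3 it was -0.015.

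NKD1 (ENSG00000140807; chromosome 16, 50548330 to 50649249) encodes a protein that binds Dishevelled and restrains Wnt signalling. It stood at 20.04, 20.9 and 19.1 CPM in wild type and at 16.9, 17.9 and 16.3 CPM with overexpression. All 3 overexpression libraries lay below all 3 wild-type libraries. Its log2 fold change of -0.23 (SE 0.12) had a 95% interval from -0.49 to 0.034, and it lay between -0.27 and -0.20 when any 1 library was left out.

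The second role is the control of receptors at the cell surface. RNF43 (ENSG00000108375; chromosome 17, 58352500 to 58417595) and ZNRF3 (ENSG00000183579; chromosome 22, 28883592 to 29057487) encode related membrane ubiquitin ligases that clear Frizzled receptors from the surface. RNF43 stood at 39.9, 35.7 and 43.4 CPM in wild type and at 38.3, 33.1 and 29.8 CPM with overexpression. The groups overlapped, since overexpression replicate 1 lay above wild-type replicate 2. RNF43 had a log2 fold change of -0.23 (SE 0.13) and a 95% interval from -0.51 to 0.046. With 1 library left out it ranged from -0.34 (without overexpression replicate 1) to -0.16 (without overexpression replicate 3).

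ZNRF3 stood at 35.3, 36.5 and 37.5 CPM in wild type and at 31.5, 33.5 and 36.0 CPM with overexpression. Only overexpression replicate 3 reached the wild-type range. For ZNRF3 a log2 fold change of -0.11 (SE 0.10) was found, with a 95% interval from -0.34 to 0.11. Without overexpression replicate 1 it was -0.070 and without overexpression replicate 3 it was -0.17.

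LGR5 (ENSG00000139292; chromosome 12, 71439770 to 71586310) encodes a receptor for R-spondins, secreted proteins that shield Frizzled from those ligases, so that it strengthens the signal. It stood at 30.6, 32.1 and 32.9 CPM in wild type and at 34.8, 29.6 and 30.6 CPM with overexpression. The highest and the lowest of the 6 values both came from overexpression libraries. LGR5 had a log2 fold change of -0.010 (SE 0.11, interval -0.25 to 0.23), and its sign turned without wild-type replicate 3 (0.012), without overexpression replicate 2 (0.032) or 3 (0.0079), and with library size alone as the scaling (0.015). The largest moves went the other way, to -0.086 when overexpression replicate 1 was left out and to -0.046 when wild-type replicate 1 was. Leaving out wild-type replicate 2 gave -0.0057.

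The third role is inhibition outside the cell. DKK1 (ENSG00000107984; chromosome 10, 52314296 to 52318042) encodes a secreted protein that blocks LRP5 and LRP6. Its counts were 30, 9 and 20 in wild type and 15, 21 and 56 with overexpression, or 0.95, 0.22 and 0.57 CPM against 0.39, 0.38 and 0.92 CPM. The exact 95% Poisson interval of wild-type replicate 2, 4.12 to 17.1 counts, did not reach the 20.2 to 42.8 counts of wild-type replicate 1, so replicates of 1 group differed by more than counting error. DKK1 differed by -0.0082 on the log2 scale (SE 0.59), and its 95% interval, -1.32 to 1.31, left a log2 difference of 1 in either direction possible. Leaving out a library moved the value from -0.58 (without overexpression replicate 3) or -0.41 (without wild-type replicate 2) to 0.53 (without wild-type replicate 1), by way of 0.19 and 0.20 without overexpression replicates 1 and 2.

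NOTUM (ENSG00000185269; chromosome 17, 81952507 to 81961840) encodes a secreted enzyme that removes the lipid Wnt proteins need for receptor binding. Its counts were 32, 49 and 33 in wild type and 46, 106 and 33 with overexpression, or 1.01, 1.19 and 0.93 CPM against 1.18, 1.93 and 0.54 CPM. Overexpression replicates 2 and 3 were the highest and the lowest of the 6, and their exact 95% Poisson intervals, 1.58 to 2.33 and 0.37 to 0.76 CPM, did not meet. NOTUM was the only one of the 10 with a positive log2 fold change, 0.22 (SE 0.44, 95% interval -0.78 to 1.21). That sign rests on overexpression replicate 2, without which the value was -0.30, and without overexpression replicate 3 it was 0.57. With the replicate block it was 0.079, 0.048 with limma on the deposited log2 table, and without wild-type replicate 3 it was 0.14.

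The fourth role is transcription itself. LEF1 (ENSG00000138795; chromosome 4, 108047545 to 108168956) and TCF7 (ENSG00000081059; chromosome 5, 134114711 to 134151865) encode DNA-binding partners of beta-catenin. Both have short forms that lack the beta-catenin binding part, and counts per gene do not separate them. LEF1 stood at 37.3, 37.1 and 39.0 CPM in wild type and at 36.6, 36.2 and 35.7 CPM with overexpression. The groups did not overlap, but the gap was 36.6 against 37.1 CPM. This gave a log2 fold change of -0.062 (SE 0.093, interval -0.27 to 0.15). Without wild-type replicate 3 the value was -0.040.

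TCF7 stood at 30.1, 35.9 and 30.8 CPM in wild type and at 33.4, 28.3 and 24.5 CPM with overexpression. Overexpression replicate 1 lay above wild-type replicates 1 and 3, and overexpression replicates 2 and 3 lay below all of wild type. For TCF7 as a whole the log2 fold change came to -0.17 (SE 0.14, interval -0.47 to 0.14). It was -0.072 without overexpression replicate 3, -0.085 without wild-type replicate 2 and -0.29 without overexpression replicate 1.

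SP5 (ENSG00000204335; chromosome 2, 170715351 to 170718078) encodes a zinc-finger protein that represses Wnt target genes. The gene whose window holds the 3 cores shown above had few counts, 34, 21 and 27 in wild type and 18, 39 and 28 with overexpression, or 1.08, 0.51 and 0.76 CPM against 0.46, 0.71 and 0.46 CPM. The groups overlapped. Its log2 fold change, -0.51 (SE 0.42, 95% interval -1.44 to 0.42), was the largest in size of the 10, and it ranged from -0.76 without overexpression replicate 2 to -0.23 without wild-type replicate 1.

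**Figure D2:**
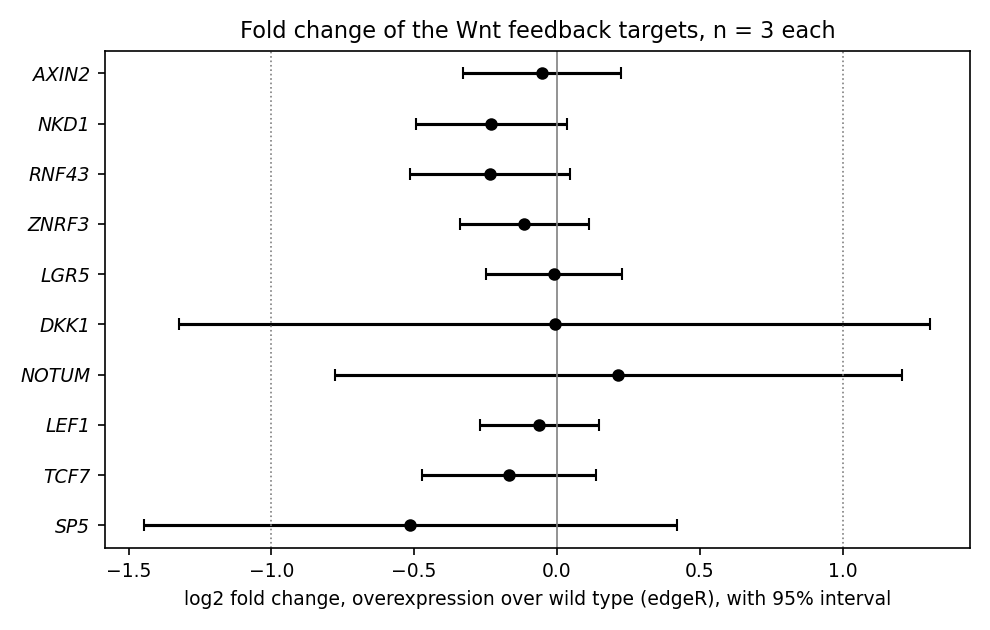
Log2 fold change of overexpression over wild type (horizontal axis) for the 10 Wnt feedback targets, from edgeR with 3 libraries per group, and its 95% interval (bars). Dotted lines mark -1 and 1. The intervals of 7 genes lie within those lines, those of DKK1, NOTUM and SP5 cross at least 1 of them.

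Side by side, the 10 genes had a median log2 fold change of -0.088, against 0.0060 over all genes tested. Without overexpression replicate 2 the median was -0.14. The value was below 0 for 9 of the 10 and for 48.8% of all genes tested. With library size alone it was below 0 for all but 3 of them (LGR5, DKK1 and NOTUM), and DKK1, close to 0, was also above it with the replicate block (0.060) and with limma on the deposited log2 table (0.056). For 2 of the 10, NKD1 and LEF1, the groups did not overlap, with all overexpression libraries below all wild-type libraries, as 4.25% of all genes tested did. The opposite, all overexpression libraries above all of wild type, held for 0 of the 10 and for 4.91% of all genes tested. Nothing is read from these shares, because the list was proposed with the contrast known. The number of genes past an adjusted p of 0.05 in edgeR was 2 in the whole table (0.0106% of all genes tested), and 1 with the replicate number as a block (0.00532%), and SFXN2 was among them in both fits. For 7 of the 10 the 95% interval lay within -1 to 1, as for 72.6% of all genes tested. In bulk RNA, fewer cells with a transcript and less of it per cell cannot be told apart.

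The summed level of the 10 genes was 215, 219 and 225 CPM in wild-type replicates 1, 2 and 3 and 213, 198 and 193 CPM in overexpression replicates 1, 2 and 3. Overexpression replicate 1 thus stood next to the wild-type libraries, and overexpression replicates 2 and 3 below them. Those same libraries had the largest totals, at 52958006 and 59963713 counts, and the most genes with a count, 28985 and 29154. The part of depth in these levels was not tested.

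**Figure D3:**
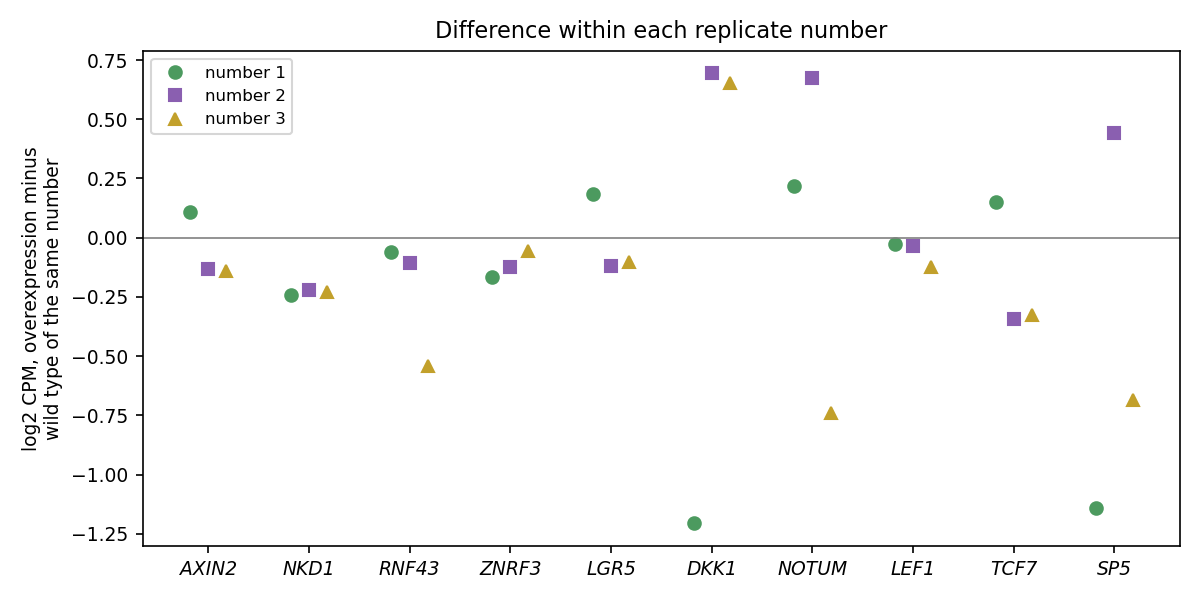
Log2 CPM of each overexpression library minus that of the wild-type library with the same replicate number (vertical axis) for the 10 Wnt feedback targets. NKD1 lies between -0.24 and -0.22 in all 3 numbers, while DKK1, NOTUM and SP5 change sign between numbers.

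Libraries of the same replicate number were then set against each other. The number of the 10 genes below 0 was 6 in number 1 (49.7% of all genes tested), 7 in number 2 (49%) and 9 in number 3 (48.3%). The median difference of the 10 was -0.042, -0.11 and -0.18 in numbers 1, 2 and 3. In all 3 numbers, 4 of the 10 were below 0 (NKD1, RNF43, ZNRF3 and LEF1), as were 14.4% of all genes tested. NKD1 was the most even, at -0.24, -0.22 and -0.23. RNF43 differed most in number 3, at -0.059, -0.11 and -0.54. AXIN2, LGR5 and TCF7 were above 0 in number 1 (0.11, 0.19 and 0.15) and below 0 in the other two. DKK1 went from -1.20 in number 1 to 0.69 and 0.65 in numbers 2 and 3, and SP5 was at -1.14, 0.44 and -0.68.

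Spread between replicates was widest for the 3 genes of lowest count. The SD of log2 CPM within groups was 0.030 for LEF1, 0.064 for NKD1, 0.075 for ZNRF3, 0.095 for LGR5 and 0.098 for AXIN2, against a median of 0.21 over all genes tested. RNF43 and TCF7 were at 0.16 and 0.18. SP5, NOTUM and DKK1 were at 0.43, 0.64 and 0.83.

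Some of the counts may include reads of genes that share exon bases with the 10. Reads of genes on opposite strands cannot be told apart there, since the library kit does not mark strand. The exons of TCF7 share 210 bases with SKP1, a ubiquitin ligase subunit on the opposite strand that had 53963 counts over the 6 libraries against 7872 for TCF7. LEF1 shares 279 bases with LEF1-AS1, on the opposite strand, which had 60 counts, and DKK1 shares 212 with PRKG1-AS1, also on the opposite strand, which had 12. Also on the opposite strand, RNF43 shares 1521 exon bases with TSPOAP1-AS1 (62 counts) and LGR5 shares 208 with AC078860.1 (67 counts). NKD1 shares 67 with AC007608.1, on the opposite strand as well, which had 0 counts. The remaining exon overlaps are on the same strand. RNF43 shares 143 exon bases with SUPT4H1, an elongation factor with 19171 counts, and 4326 bases with the model AC004687.2, which had 662 counts against 9394 for RNF43. AXIN2 shares 1316 bases with AC004805.1, which had 11 counts. How the authors assigned reads of such bases is not stated in those labels.

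The near relatives of these genes, most of which are not counted among feedback targets, stood higher per kilobase in some cases and lower in others. These levels use all annotated exon bases, and the order can change with the length used. AXIN1, the other axin scaffold, stood at 78.1 ± 1.61 CPM in wild type and 70.3 ± 7.67 CPM with overexpression (SD, n = 3 each). Per kilobase of exon it was at 10.4 CPM in wild type, where AXIN2 was at 3.63. LGR4, another R-spondin receptor, was at 11.4 CPM per kilobase in wild type, where LGR5 was at 6.06, and LGR6 was at 0.14.

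TCF7L2 and TCF7L1, the remaining TCF proteins, were at 5.52 and 3.46 CPM per kilobase in wild type. There LEF1 was at 7.04 and TCF7 at 3.21. Their log2 fold changes were -0.19 (SE 0.11) and -0.32 (SE 0.24), both with an adjusted p of 0.93 by edgeR. NKD2 was at 15.0 ± 4.403 CPM in wild type and 12.5 ± 0.57 CPM with overexpression (SD, n = 3 each). Per kilobase of exon NKD2 was at 5.20 CPM in wild type, where NKD1 was at 1.15. DKK3 stood at 2.03 ± 0.32 and 1.53 ± 0.46 CPM (SD, n = 3 each), DKK2 had 45 counts over the 6 libraries and was not tested, and DKK4 had 0 counts. SP8, a relative of SP5, was at 3.425 ± 0.28 and 3.65 ± 1.28 CPM (SD, n = 3 each).

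Across the rest of the pathway, no gene passed the test. The 8 lists of other Wnt pathway genes held 105 genes, of which 92 were tested and 0 passed an adjusted p of 0.05 by edgeR in either direction (0.0106% of all genes tested passed). DESeq2 also called 0 of the 92. The unadjusted p by edgeR was below 0.05 for 5 of the 92, while over all genes tested the share was 4.76%. These 5 were LRP5, FZD4, DVL1, KREMEN1 and CD44. That count rests on single libraries. It came to 21, 1 and 1 when overexpression replicates 1, 2 and 3 were left out in turn. Leaving out wild-type replicates 1, 2 and 3 gave 10, 2 and 3. Over all genes the number with an unadjusted p below 0.05 moved as well, from 895 of 18797 to 2295 of 19524 without overexpression replicate 1 and to 304 of 19115 without overexpression replicate 3. The 92 genes had a median log2 fold change of -0.080, and 62 had a value below 0 and 30 above, where 48.8% of all genes tested were below 0. The share below 0 was 59.6% to 72.8% under the other settings and with each library left out, the lowest without wild-type replicate 2. Like the 10 genes, these lists were chosen with earlier results of these data known. The counts are therefore a description, and no list was tested.

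Of 19 Wnt ligands 13 were tested, and 0 passed, with 8 values below 0 and 5 above. Beside this count and those of the lists below stands the 48.8% of all genes tested with a value below 0. WNT5A, a ligand best known for signalling without beta-catenin, had the highest CPM of the list, 23.9 ± 3.45 CPM in wild type and 22.2 ± 6.49 CPM with overexpression (SD, n = 3 each). WNT4 had the smallest unadjusted p of the list, with 0.92 ± 0.25 and 0.57 ± 0.023 CPM (SD, n = 3 each) and a log2 fold change of -0.69 (SE 0.36, adjusted p = 0.93 by edgeR). WNT16 stood at 2.39 ± 0.37 and 1.72 ± 0.60 CPM (SD, n = 3 each). WLS, which carries Wnt proteins to the cell surface, was at 113 ± 12.9 and 109 ± 12.5 CPM (SD, n = 3 each), and PORCN, which attaches their lipid, at 7.28 ± 2.02 and 6.14 ± 0.75 CPM (SD, n = 3 each). The log2 fold changes of WLS and PORCN were -0.059 (SE 0.12) and -0.25 (SE 0.24).

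Of the 15 receptors and co-receptors, all were tested, 0 passed, and 12 had values below 0. LRP5 had the smallest unadjusted p (0.0072) but an adjusted p of 0.93 by edgeR. It stood at 78.7, 92.1 and 90.8 CPM in wild type and at 74.95, 65.6 and 61.3 CPM with overexpression, without overlap, and its log2 fold change was -0.37 (SE 0.11). The other co-receptor, LRP6, stood at 101 ± 0.52 and 101 ± 3.22 CPM (SD, n = 3 each). FZD4, a Frizzled receptor, was at 42.2, 54.9 and 38.5 CPM in wild type and at 43.3, 30.2 and 26.5 CPM with overexpression. For FZD4, unlike LRP5, overexpression replicate 1 stood within the wild-type range.

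Of the 6 R-spondins and their other receptors 5 were tested and 0 passed, with 2 values below 0 and 3 above. RSPO4 was at 0.93 ± 0.28 and 1.45 ± 0.46 CPM (SD, n = 3 each). Its log2 fold change was 0.64 (SE 0.37, adjusted p = 0.93 by edgeR). Among 15 genes of the destruction complex and Dishevelled, 0 passed and 10 had values below 0. CTNNB1, which encodes beta-catenin itself, stood at 298 ± 47.0 and 294 ± 28.0 CPM (SD, n = 3 each), with a log2 fold change of -0.020 (SE 0.13). DVL1, a Dishevelled protein, had the smallest unadjusted p of the list (0.029, adjusted p = 0.93 by edgeR), at 67.0, 79.2 and 83.2 CPM in wild type and 70.4, 51.8 and 59.5 CPM with overexpression. AMER1, which brings the complex to the membrane, was at 17.6 ± 1.77 and 15.3 ± 0.67 CPM (SD, n = 3 each).

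Of 13 nuclear partners of beta-catenin, 0 passed and 11 had values below 0. EP300, a co-activator, was at 237 ± 15.2 and 231 ± 14.3 CPM (SD, n = 3 each), and BCL9, which links beta-catenin to Pygopus proteins, at 46.8 ± 0.88 and 42.5 ± 2.84 CPM (SD, n = 3 each). Of 17 other inhibitors 14 were tested and 0 passed, with 9 values below 0 and 5 above. KREMEN1, a receptor through which Dickkopf proteins clear LRP6, stood at 67.9, 91.3 and 60.3 CPM in wild type and at 66.6, 45.3 and 37.1 CPM with overexpression (log2 fold change -0.56, SE 0.23, adjusted p = 0.93 by edgeR). SOST, another LRP antagonist, was at 0.26 ± 0.10 and 0.44 ± 0.12 CPM (SD, n = 3 each), from 92 counts over the 6 libraries. Its log2 fold change was 0.76 (SE 0.50, adjusted p = 0.93 by edgeR).

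Of 18 other Wnt target genes 15 were tested, 0 passed, and the values lay on both sides, 8 below and 7 above 0. MYC, a growth regulator, stood at 99.2, 257 and 150 CPM in wild type and at 131, 120 and 105 CPM with overexpression, with wild-type replicate 2 well above the rest, and its log2 fold change was -0.51 (SE 0.32). CD44, a cell adhesion receptor, had the largest positive value, with 13.7, 7.77 and 8.85 CPM in wild type and 10.5, 20.9 and 27.1 CPM with overexpression (log2 fold change 0.95, SE 0.35, adjusted p = 0.93 by edgeR). EPHB2, an ephrin receptor, was at 32.5 ± 3.19 and 27.7 ± 1.77 CPM (SD, n = 3 each).

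**Figure D4:**
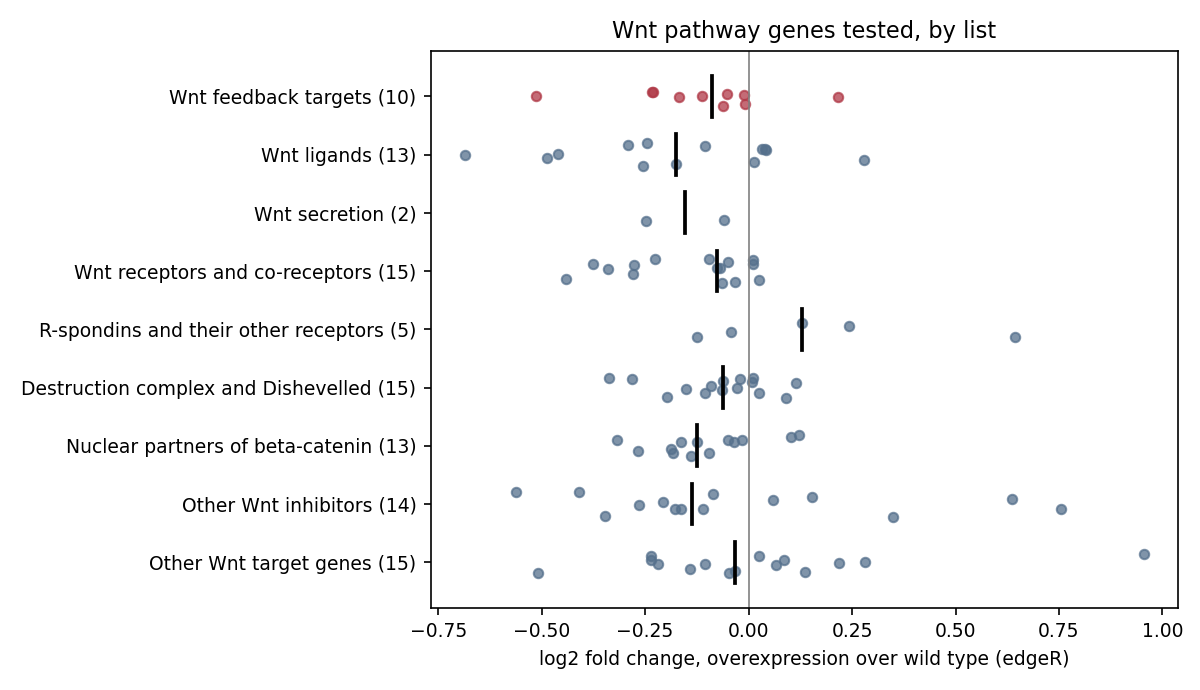
Log2 fold change of overexpression over wild type (horizontal axis) of each tested gene, for the 10 Wnt feedback targets and the 8 lists of other Wnt pathway genes, with the number tested in brackets and the list median as a bar. The medians lie between -0.18 and 0.13, and the farthest single genes are WNT4 at -0.69 and CD44 at 0.95.

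The 10 genes were also set against every other gene of at least 1 CPM by the shape of their profile over the 6 libraries. The mean standardised level of the 10 was 0.38, 0.15 and 0.68 in wild type and -0.022, -0.43 and -0.75 with overexpression. The most alike of 15086 genes were TBC1D24, BEND4 and ZNF687, with likenesses (Pearson's r over 6 libraries) of 0.99, 0.99 and 0.98. TBC1D24 stood at 28.0, 26.2 and 29.3 CPM in wild type and at 24.9, 23.3 and 22.5 CPM with overexpression. A likeness above 0.9 over these 6 libraries was reached by 185 genes. All share depth and scaling with the 10, and the part of these was not tested. The profile comes from genes selected on this contrast. Lower values with overexpression in the genes most like it are therefore no separate result.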

How the data were processed

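Per the labels' protocols, total RNA of HEK293 cells was depleted of ribosomal RNA and prepared with a TruSeq RNA v2 kit. The submitters' processing notes name Trim Galore 0.4.4 and the build hg38. Which aligner, counter and annotation were used is not stated there. Raw counts of 60564 genes were deposited, per the file headers, with a log2 table of 35778 genes. From the values, the deposited log2 figures are the log2 of the count over 1 constant per library, plus 1.

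The tests ran in edgeR 4.0.16 under R 4.3.3, with TMM factors. Genes were kept by filterByExpr (minimum count 10). The robust quasi-likelihood F-test had group as its term, and p was adjusted by Benjamini-Hochberg over all 18797 genes, with a threshold of 0.05. An SE is the log2 fold change over the square root of F, and log2 CPM used a prior count of 2. The script was checked on simulated counts. Positions and exon lengths came from GENCODE 29, matched by Ensembl ID for 58457 genes. Since separate cultures are not stated, p-values reflect the spread of these 6 samples only, possibly a technical one. Poisson intervals cover counting error only.

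The members and lists were chosen with earlier results of these data known. Named were the members, SFXN2, the members' near relatives, for each pathway list the gene of highest CPM, those past the threshold and the 2 of smallest unadjusted p, and the 3 genes of most similar profile. LEF1-AS1, PRKG1-AS1, TSPOAP1-AS1, AC078860.1, AC007608.1, SKP1, SUPT4H1, AC004687.2, AC004805.1, HBB, COL1A1 and EPCAM were named after their values were seen.

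Libraries with the same number deviated together from their group means (correlations over genes 0.24, 0.33 and 0.19 for numbers 1, 2 and 3). The numbers were therefore treated as pairing the libraries in the differences by number and in the replicate block, a reading of the data that no label states. The main fit, which gave the SEs, intervals and p-values, left this pairing out. No 2 libraries were alike within counting noise (lowest chi-square per degree of freedom 13.7).

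Alternatives were library size alone, median-of-ratios scaling, DESeq2 1.42.0, limma 3.58.1 on the log2 table, no low-count filter, 1 CPM in 3 libraries, a replicate block, a threshold of 0.01 and leaving out each library.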

Additional observations from a re-analysis of the deposited data

How the results depend on the processing

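The number of genes past the threshold was 2 in edgeR, 9 with DESeq2 (6 of them higher), 1 with the replicate block and 1 at a threshold of 0.01, and 1 to 3 when each library was left out. The count of other Wnt pathway genes past the threshold was 0 under every alternative run. The replicate block changed no other call. With it, 1563 of 18797 genes had an unadjusted p below 0.05 by edgeR, against 895 in the main fit. Among the other Wnt pathway genes that number was 5 in both fits. The SFXN2 log2 fold change stayed past the threshold in all of them, at 5.41 to 5.75. The median of the feedback targets lay between -0.14 and -0.059. DKK1 ranged from -0.58 to 0.53, LGR5 from -0.086 to 0.032 and NOTUM from -0.30 to 0.57, so the signs of these 3 are not determined. The other 7 were below 0 in every alternative that tested them, AXIN2 barely so without overexpression replicate 2 (-0.00022). DKK1, SP5 and NOTUM rest on 151, 167 and 299 counts, and for DKK1 and NOTUM replicates of 1 group differed by more than counting error. The part of depth in their spread was not tested.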
